A study of Mus musculus with 5 samples.

Results

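The genes described here are 10 genes of Notch signaling and the segmentation clock, out of 32285 genes counted in mouse epiblast stem cells (EpiSCs) during mesoderm differentiation. They were taken by symbol, namely Hes7, Hes1, Hey1, Nrarp, Lfng, Dll1, Dll3, Jag1, Notch1 and Notch2, and all 10 were present in all 5 libraries. All 5 libraries were used, and cells were retained by their number of detected genes and their share of mitochondrial RNA. Retained cells were then also split by detected RNA of Tbx6, T or Cdh1. The genes were chosen with earlier results from these data known. The wild-type EpiSC line had a 129 background and came from the epiblast of a mouse embryo, so that all values come from 1 cell line. All 5 cultures received 1 µM of the Wnt agonist Chi and 8 ng/ml BMP4 for 3 days. In addition, 4 of them received 0, 0.75, 3 or 12 ng/ml FGF2, and the fifth received 30 nM of the FGFR inhibitor AZD4547 (FGFRi), for which the labels state no FGF2 dose. The culture with 0 ng/ml is referred to as without FGF2, and the others as the low, medium and high dose. The difference between FGFRi and no FGF2 can therefore not be assigned to the inhibitor alone.

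Notch receptors are cleaved when a Delta or Jagged ligand on a neighboring cell binds them, and the released intracellular domain joins the DNA-binding protein RBPJ to activate targets of the Hes and Hey families. In the presomitic mesoderm, the tissue that is cut into somites, Hes7 represses itself and Lfng, and both oscillate together with other Notch, FGF and Wnt targets. FGF signaling is highest at the posterior end of this tissue, and Tbx6, a T-box factor that marks it, is known to activate Dll1 there.

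As each condition was sequenced as 1 library, conditions could not be tested against each other, no p-value is given, and the spread between cultures is unknown. Levels are unique molecular identifiers (UMIs) of a gene per 1000000 UMIs (CPM), summed over retained cells, with exact Poisson 95% intervals in brackets where given, and ratios carry exact conditional 95% intervals. All of these intervals cover counting error only. A gene was counted as past the rule of size between 2 libraries when it reached 10 CPM in either of them and its levels differed by at least 2-fold. Between 1696 and 2725 cells per library were retained, at median depths from 24408 to 29661.5 UMIs, and any pair of libraries shared at most 2 retained cell barcodes.

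The promoters of 5 of the genes are shown first. Hes7, Dll1, Dll3 and Nrarp were the members that passed the rule of size between no FGF2 and the high dose, and Lfng is the clock gene that did not share their pattern across libraries. RefSeq promoters on GRCm38.p6, running from 250 bases before the start to 50 bases from it, were found for 8 of the 10 members and not for Hes1 and Hey1. The windows are chr11:69120203-69120502 for Hes7, chr5:140607091-140607390 for Lfng, chr17:15376883-15377182 for Dll1, chr7:28301736-28302035 for Dll3 and chr2:25180508-25180807 for Nrarp. Their starts lie 49, 21, 60, 453 and 0 bases from the outermost start of the same genes in GENCODE. Capitals mark the letters TGGGAA, the core of sites that RBPJ can bind, and CACNAG, the N-box letters that Hes proteins can bind, on either strand.
Hes7: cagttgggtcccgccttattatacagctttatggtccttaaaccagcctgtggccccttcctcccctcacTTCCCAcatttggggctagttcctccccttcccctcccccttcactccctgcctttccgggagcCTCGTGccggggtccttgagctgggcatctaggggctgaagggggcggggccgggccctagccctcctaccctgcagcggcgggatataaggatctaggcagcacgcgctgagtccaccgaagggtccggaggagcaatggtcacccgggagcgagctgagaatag
Lfng: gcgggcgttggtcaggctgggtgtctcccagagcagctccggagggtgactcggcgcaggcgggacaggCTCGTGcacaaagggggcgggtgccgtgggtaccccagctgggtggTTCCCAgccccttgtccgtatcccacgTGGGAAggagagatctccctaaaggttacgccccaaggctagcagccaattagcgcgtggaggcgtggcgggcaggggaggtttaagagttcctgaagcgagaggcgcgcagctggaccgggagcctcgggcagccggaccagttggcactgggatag
Dll1: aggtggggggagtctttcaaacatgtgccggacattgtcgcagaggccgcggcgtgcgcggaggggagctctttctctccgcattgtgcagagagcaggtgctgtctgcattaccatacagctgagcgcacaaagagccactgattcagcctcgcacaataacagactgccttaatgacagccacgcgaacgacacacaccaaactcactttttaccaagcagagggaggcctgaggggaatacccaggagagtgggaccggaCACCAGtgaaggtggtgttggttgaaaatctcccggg
Dll3: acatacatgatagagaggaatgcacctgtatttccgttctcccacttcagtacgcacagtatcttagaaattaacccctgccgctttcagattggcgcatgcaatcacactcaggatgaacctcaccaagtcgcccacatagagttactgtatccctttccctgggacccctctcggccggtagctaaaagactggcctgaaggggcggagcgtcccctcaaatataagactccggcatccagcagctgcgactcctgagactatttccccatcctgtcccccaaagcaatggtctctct
Nrarp: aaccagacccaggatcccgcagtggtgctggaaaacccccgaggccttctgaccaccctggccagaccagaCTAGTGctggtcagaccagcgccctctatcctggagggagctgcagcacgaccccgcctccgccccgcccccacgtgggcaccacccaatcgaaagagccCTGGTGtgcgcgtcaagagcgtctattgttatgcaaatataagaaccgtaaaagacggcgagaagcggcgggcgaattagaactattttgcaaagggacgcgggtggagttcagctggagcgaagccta
The letters TGGGAA occurred in 2 of the 8 promoters, once in Hes7 (from position -180 to -175, with the start as position 0) and at 2 places in Lfng (from -135 to -130 and from -108 to -103). Over all 32851 promoters of the same length, 25.6% held these letters and 3.79% held them at 2 or more places. CACNAG occurred in 6 of the 8, against 42.5% of all promoters, and it was absent from the windows of Dll3 and Jag1. The window of Notch1, which is among the 6, starts 12841 bases from the outermost GENCODE start of that gene, and without it the count is 5 of 7. The E-box letters CACGTG were found in Lfng, where they overlap a TGGGAA match, and in Nrarp, against 7.15% of all promoters. AGGTGT, letters that T-box factors such as Tbx6 can bind, was in 0 of the 8 windows, against 13.7% of all promoters. These matches describe the letters of short windows, and no binding was measured.

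Transcription factors downstream of Notch differed widely in how their levels varied with FGF2. Hes7 (chr11:69120404-69124055, plus strand), the repressor at the core of the somite clock, was at 0.523 CPM with FGFRi, 29.3 CPM without FGF2, 56.0 CPM at the low dose, 92.7 CPM at the medium dose and 102 CPM at the high dose. The intervals of all 5 libraries were separate from each other, and the level was higher at each step. In such summed levels, more expressing cells and more RNA per cell cannot be told apart. It was 56.1-fold (37.9 to 87.0) higher without FGF2 than with FGFRi, where only 25 UMIs were counted, and 3.49-fold (3.31 to 3.68) higher at the high dose than without FGF2. With each cell thinned to 5000 UMIs, the share of cells with a Hes7 UMI was 0.235% with FGFRi, 10.6% without FGF2, 19.9% at the low dose, 32.5% at the medium dose and 34.5% at the high dose, and without thinning it was 1.35%, 27.5%, 47.9%, 70.8% and 70.5%. In cells without a UMI of T, Tbx6, Msgn1 or Cdx2, the thinned share was 0.798% of 501 cells without FGF2 and 1.30% of 231 at the low dose. At the medium and high doses only 46 and 42 such cells were left, with shares of 6.52% (1.37 to 17.9) and 0%. With FGFRi such cells were 1550 of 1701 and held all 25 Hes7 UMIs, so that they give no separate background there, and whether these UMIs were free RNA was not tested. Single cells held up to 27 Hes7 UMIs at the high dose and at most 2 with FGFRi.

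Hes1 (chr16:30064384-30067796, plus strand), the more widely expressed repressor of the same family, was at 50.2 CPM with FGFRi and 56.9, 59.8, 54.2 and 57.3 CPM from no FGF2 upward. The highest of these levels was 1.19 times the lowest, and the ratio of the high dose to no FGF2 was 1.01 (0.960 to 1.05). Hey1 (chr3:8663359-8667256, minus strand), a target of Notch in vessels and somites, was at 3.66 CPM with FGFRi and at 4.73, 6.33, 7.79 and 7.52 CPM with rising FGF2. It was 1.59-fold (1.37 to 1.84) higher at the high dose than without FGF2, while its intervals at the medium and high doses overlapped. Nrarp (chr2:25180758-25183339, plus strand), a small ankyrin protein that is induced by Notch and dampens it, was at 3.18, 15.0, 22.1, 39.8 and 54.5 CPM in the same order. As for Hes7, no intervals of Nrarp overlapped, but its step from FGFRi to no FGF2 was smaller (4.72-fold, 3.97 to 5.65) and that from no FGF2 to the high dose was 3.63-fold (3.37 to 3.91).

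Lfng (chr5:140607320-140615545, plus strand), the glycosyltransferase that modifies Notch and is itself a clock gene, had another order. Its level was 8.05 CPM with FGFRi, 4.01 CPM without FGF2, 2.53 CPM at the low dose, 3.95 CPM at the medium dose and 5.20 CPM at the high dose. It was highest with FGFRi and lowest at the low dose, and its intervals without FGF2 and at the medium dose overlapped. In the FGFRi library, Lfng was at 8.29 CPM in the 1550 of 1701 cells without a UMI of T, Tbx6, Msgn1 or Cdx2, near its level over all cells.

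**Figure D1:**
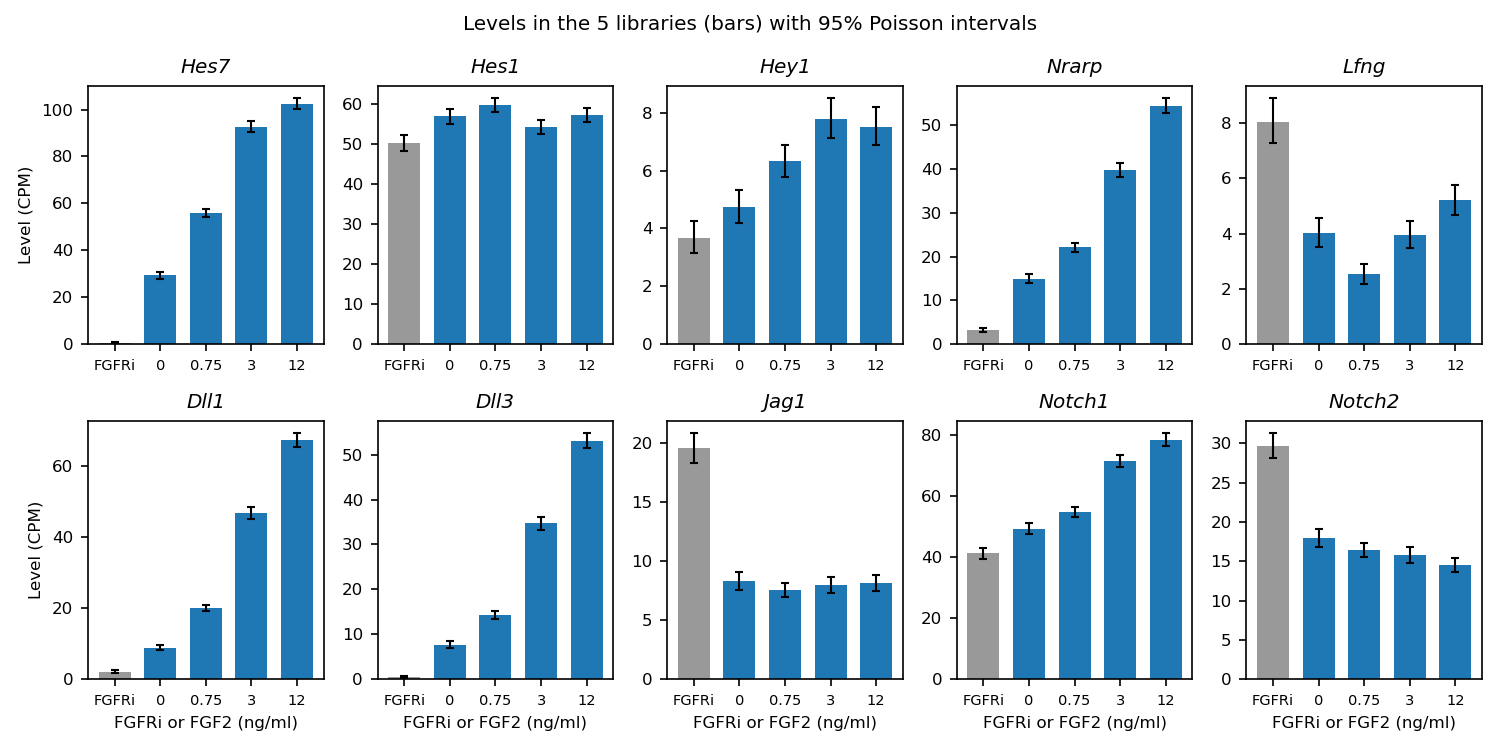
Levels of the 10 genes (y axes, CPM, each from 0) with FGFRi (grey) and at 0, 0.75, 3 and 12 ng/ml FGF2 (blue), with 1 library per bar and 95% Poisson intervals for counting error. Hes7, Nrarp, Dll1, Dll3 and Notch1 are higher at each step from left to right, whereas Notch2, Jag1 and Lfng are highest with FGFRi and Hes1 ranges only 1.19-fold.

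Both Delta genes were higher at each step, and the Jagged gene was not. Dll1 (chr17:15367354-15376872, minus strand), the ligand that activates Notch in the presomitic mesoderm, was at 2.11 CPM with FGFRi, 8.82 CPM without FGF2, 20.03 CPM at the low dose, 46.9 CPM at the medium dose and 67.4 CPM at the high dose. It had the highest ratio of the members between the high dose and no FGF2, 7.64-fold (6.97 to 8.40). Dll3 (chr7:28293553-28302238, minus strand), a Delta protein that acts inside the cell and is needed for regular somites, was at 0.418, 7.69, 14.3, 34.7 and 53.1 CPM, and its ratio of the high dose to no FGF2 was 6.90 (6.25 to 7.64). The intervals of the 5 libraries were separate for both genes. Jag1 (chr2:137081456-137116644, minus strand), a ligand used in many epithelia and vessels, was at 19.5 CPM with FGFRi and at 8.31, 7.51, 7.94 and 8.12 CPM from no FGF2 to the high dose. It was 2.35-fold lower without FGF2 than with FGFRi, and its intervals at all 4 doses overlapped (high dose over no FGF2, 0.978, 0.864 to 1.11).

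The receptors moved in opposite directions and by less. Notch1 (chr2:26457903-26516663, minus strand), the main receptor of the presomitic mesoderm, was at 41.2 CPM with FGFRi and at 49.2, 54.7, 71.4 and 78.5 CPM from no FGF2 to the high dose. These intervals were separate at each step, and the ratio of the high dose to no FGF2 was 1.60 (1.52 to 1.67). Notch2 (chr3:98013527-98150361, plus strand), a broadly expressed receptor of the same family, was at 29.7 CPM with FGFRi and at 17.9, 16.4, 15.8 and 14.5 CPM from no FGF2 to the high dose. It was 1.66-fold lower without FGF2 than with FGFRi, the ratio of the high dose to no FGF2 was 0.810 (0.742 to 0.884), and neighboring doses overlapped.

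Counted by the rule of size, 4 of the 7 members that reached 10 CPM were past it between no FGF2 and the high dose, Hes7, Dll1, Dll3 and Nrarp, all higher. Over all 8237 genes that reached the minimum, 1.87% were past the rule and higher and 4.04% past it and lower. Lfng, Hey1 and Jag1 stayed under 10 CPM in both libraries. Dll1 and Dll3 reached this minimum only at the high dose, as they were at 8.82 and 7.69 CPM without FGF2. They thus entered the count through the library in which they were higher, and the count serves as a description. The median log2 ratio over all 10 members was 0.67, beside 0.01 over all genes that reached the minimum. Between FGFRi and no FGF2, 3 of 6 members were past the rule, with Hes7 and Nrarp higher and Jag1 lower without FGF2 (of all genes 2.62% were higher and 5.38% lower), and Dll1 and Dll3 were under the minimum although their ratios were 4.18 and 18.4. From no FGF2 to the low dose Dll1 alone of 7 was past it and higher (0.308% of all genes, with 1.41% lower), and Hes7 and Dll3 were just under 2-fold with ratios of 1.91 and 1.85. From the low to the medium dose 2 of 7, Dll1 and Dll3, were past it and higher (0.336% of all genes, with 0.523% lower). From the medium to the high dose 0 of 7 were (0.0631% of all genes higher and 0.0252% lower), and the highest ratio among the members was 1.53 for Dll3, followed by 1.44 for Dll1, 1.37 for Nrarp, 1.32 for Lfng and 1.11 for Hes7. Between FGFRi and no FGF2, Hes7, Nrarp and Jag1 likewise reached 10 CPM only in the library in which they were higher. The same holds for Dll1 between no FGF2 and the low dose. These pairs share libraries, so their values are given side by side only.

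**Figure D2:**
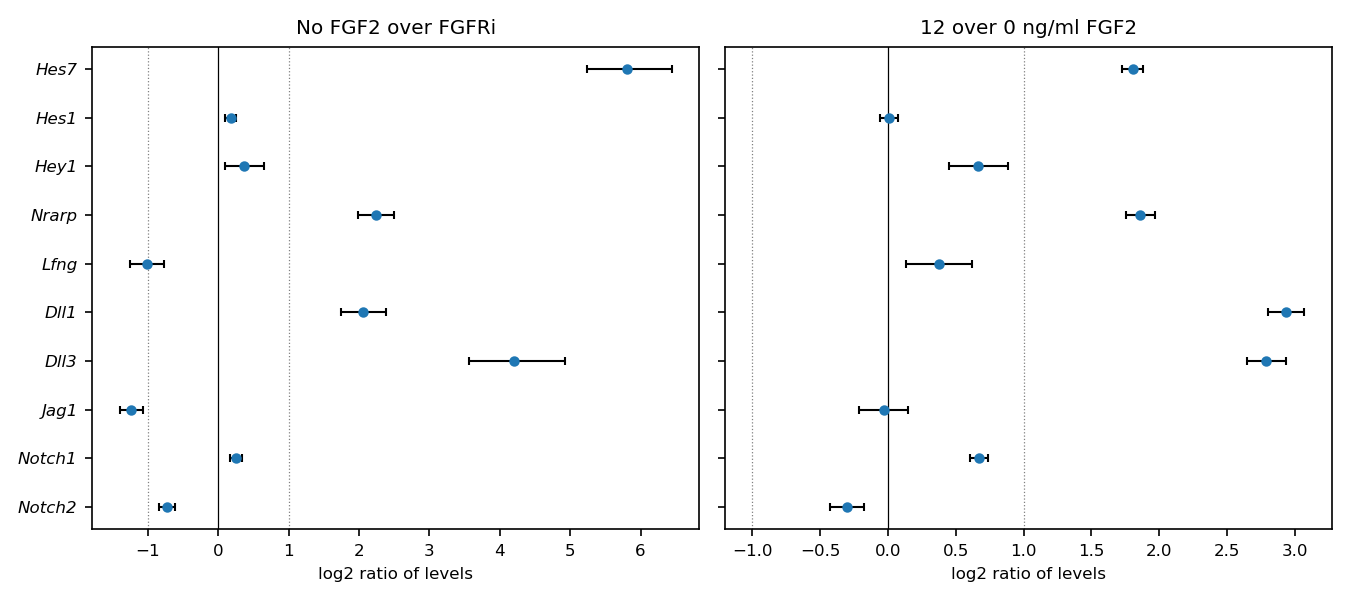
Log2 ratio of the level of each of the 10 genes between 0 ng/ml FGF2 and FGFRi (left) and between 12 and 0 ng/ml FGF2 (right), with exact 95% intervals for counting error and dotted lines at 2-fold. Hes7, at 56.1-fold, is farthest to the right in the left panel, and Dll1, at 7.64-fold, in the right panel.

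The 4 genes past the rule between no FGF2 and the high dose were higher in cells that also held Tbx6 RNA than in the other cells at all 4 doses. Tbx6 (chr7:126781483-126785560, plus strand) was detected in 11 of 1701 cells with FGFRi, in 135 cells without FGF2 (7.96%), 437 at the low dose (16.04%), 767 at the medium dose (36.1%) and 1196 at the high dose (49.7%). The FGFRi library held too few such cells to be split. In each of the others, cells with a Tbx6 UMI had a higher median depth than those without. The medians were 32264 and 29342 UMIs without FGF2, and 28305 and 27386.5 UMIs at the low dose. They were 29494 and 27892 UMIs at the medium dose, and 27499.5 and 27427.5 UMIs at the high dose. A cell without a Tbx6 UMI is not shown to lack the RNA, as 374 of the 1196 cells with a Tbx6 UMI at the high dose held only 1.

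At the high dose, cells with a Tbx6 UMI held 49.2% of all UMIs, but 86.7% of the Dll1 UMIs, 81.1% of Dll3, 74.5% of Lfng, 72.7% of Nrarp, 66.0% of Hes7 and 63.8% of Notch1. For Hey1, Jag1, Notch2 and Hes1 the shares were 59.4%, 53.2%, 48.9% and 46.2%. Without FGF2, where such cells held 8.34% of all UMIs, they held 67.3% of the Dll3 UMIs, 65.7% of Dll1, 44.2% of Nrarp and 40.7% of Hes7. More than these cells' share of all UMIs was thus found there for all 4 genes, but for Hes7 and Nrarp most UMIs lay outside them without FGF2 and also at the low dose, where the shares inside were 39.0% and 41.1%. Lfng, whose order across libraries was not that of Hes7, had 19.3% of its UMIs in these cells without FGF2, again above their share of all UMIs.

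Between cells with and without a Tbx6 UMI, Dll1 differed by 21.0-fold without FGF2, 13.9-fold at the low dose, 7.84-fold at the medium dose and 6.73-fold (6.19 to 7.32) at the high dose. Dll3 differed by 22.6-, 8.28-, 5.31- and 4.41-fold, Nrarp by 8.70-, 3.59-, 2.72- and 2.74-fold, and Hes7 by 7.55-, 3.28-, 1.87- and 1.999-fold. For all 4 genes the ratio at the high dose was thus smaller than that without FGF2. Lfng was at a nearly constant ratio of 2.63, 2.88, 2.98 and 3.00, and that of Notch1 was larger at each dose, at 1.27, 1.52, 1.75 and 1.82. Hey1 went from 4.02 to 1.51. Hes1, Jag1 and Notch2 stayed between 0.724 and 1.17. By the rule of size, 5 of 8 members were higher in cells with a Tbx6 UMI without FGF2 (2.61% of all genes). They were Hes7, Dll1, Dll3, Nrarp and Hey1. The counts were 4 of 8 at the low dose (1.45%), 3 of 8 at the medium dose (1.03%) and 3 of 7 at the high dose (1.3%). Without FGF2, Dll1, Dll3, Nrarp and Hey1 reached 10 CPM only in the cells with a Tbx6 UMI, as did Dll1 and Dll3 at the low dose. These members thus entered the counts through the cells in which they were higher. In the 4 libraries 0 members were lower, beside 7.29%, 3.65%, 2.51% and 3.64% of all genes. Among so few members, a count of 0 is near these shares. Hes7 at the high dose lay just under the limit. When Tbx6 was read after thinning each cell to 5000 UMIs, the log2 ratio of Dll1 at the high dose was 1.63 in place of 2.75, so these ratios depend on how completely Tbx6 is detected.

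**Figure D3:**
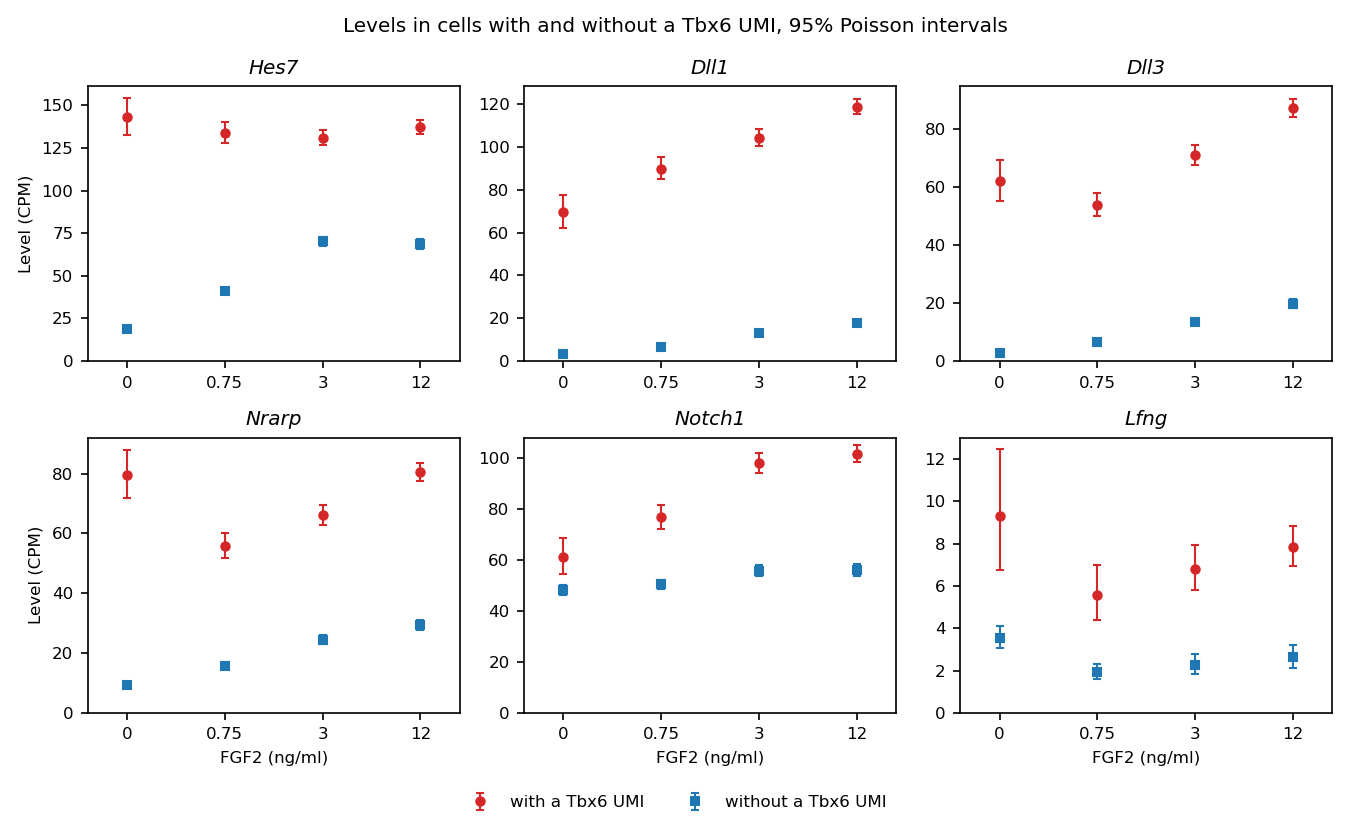
Levels (CPM) of 6 genes in cells with (red circles) and without (blue squares) a Tbx6 UMI at 4 FGF2 doses, 1 library each, with 95% Poisson intervals for counting error. Hes7 is between 131 and 143 CPM in the cells with a Tbx6 UMI at all doses and between 19.0 and 70.2 CPM in the others, while Dll1 and Notch1 are higher at 12 than at 0 ng/ml in both.

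Within the cells with a Tbx6 UMI, Hes7 was at 143, 134, 131 and 137 CPM from no FGF2 to the high dose (ratio of the high dose to no FGF2, 0.958, 0.884 to 1.04), and Nrarp was at 79.5, 55.8, 66.2 and 80.4 CPM (1.01, 0.907 to 1.13). Neither was thus distinguishable between the lowest and highest doses within counting error in these cells, and Nrarp was lower at the doses between. For Hes7 this holds for these cells as 1 set, since it differed between doses in some finer sets described below. Dll1 was at 69.4, 89.8, 104 and 119 CPM (1.71, 1.53 to 1.92), Notch1 at 61.2, 76.8, 97.96 and 102 CPM (1.66, 1.47 to 1.88), and Dll3 at 62.0, 54.0, 71.2 and 87.4 CPM (1.41, 1.25 to 1.59). Tbx6 itself was at 70.3 and 99.5 CPM in these cells without FGF2 and at the high dose. In cells without a Tbx6 UMI, Hes7 was at 19.0, 40.8, 70.2 and 68.6 CPM, 3.62-fold (3.36 to 3.90) higher at the high dose than without FGF2, Dll1 was 5.34-fold, Dll3 7.22-fold and Nrarp 3.21-fold higher. Notch1 was only 1.16-fold (1.10 to 1.23) higher there, and Hey1 was 1.59-fold (1.30 to 1.94) higher. In cells with a Tbx6 UMI, Hey1 was instead lower at the high dose. Its levels in them were 15.2 CPM without FGF2 and 9.07 CPM at the high dose (0.597, 0.461 to 0.782). Tbx6 was detected in 7.96% of cells without FGF2 and in 49.7% at the high dose. The cells without a Tbx6 UMI may thus include more cells with undetected Tbx6 RNA at the high dose. The part of this in the ratios given for them was not tested.

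Levels were also graded by the number of Tbx6 UMIs in a cell. At the high dose, Hes7 was at 68.6 CPM in cells with no Tbx6 UMI, 106 CPM with 1, 138 CPM with 2 to 3 and 165 CPM with 4 or more, and Dll1 was at 17.6, 67.5, 133 and 151 CPM. Notch1 was at 56.0, 80.8, 104 and 118 CPM and Lfng at 2.62, 4.41, 8.12 and 10.8 CPM in the same order. With 1 Tbx6 UMI, Hes7 was at 101, 105, 105 and 106 CPM at the 4 doses, and its intervals overlapped. With 4 or more, Hes7 was at 219, 191, 162 and 165 CPM in the same order. Its intervals there without FGF2 and at the low dose were separate from those at the medium and high doses. Hes1 was lowest in cells with 4 or more Tbx6 UMIs at the low and high doses (40.6 and 47.4 CPM), and the intervals of Jag1 overlapped throughout. Depth also differed between these classes. At the high dose the medians were 27427.5, 26837, 26540 and 28707.5 UMIs per cell from no Tbx6 UMI to 4 or more, and without FGF2 they were 29342, 29974, 33310 and 36431 UMIs per cell, and the part of depth in these levels was not tested.

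**Figure D4:**
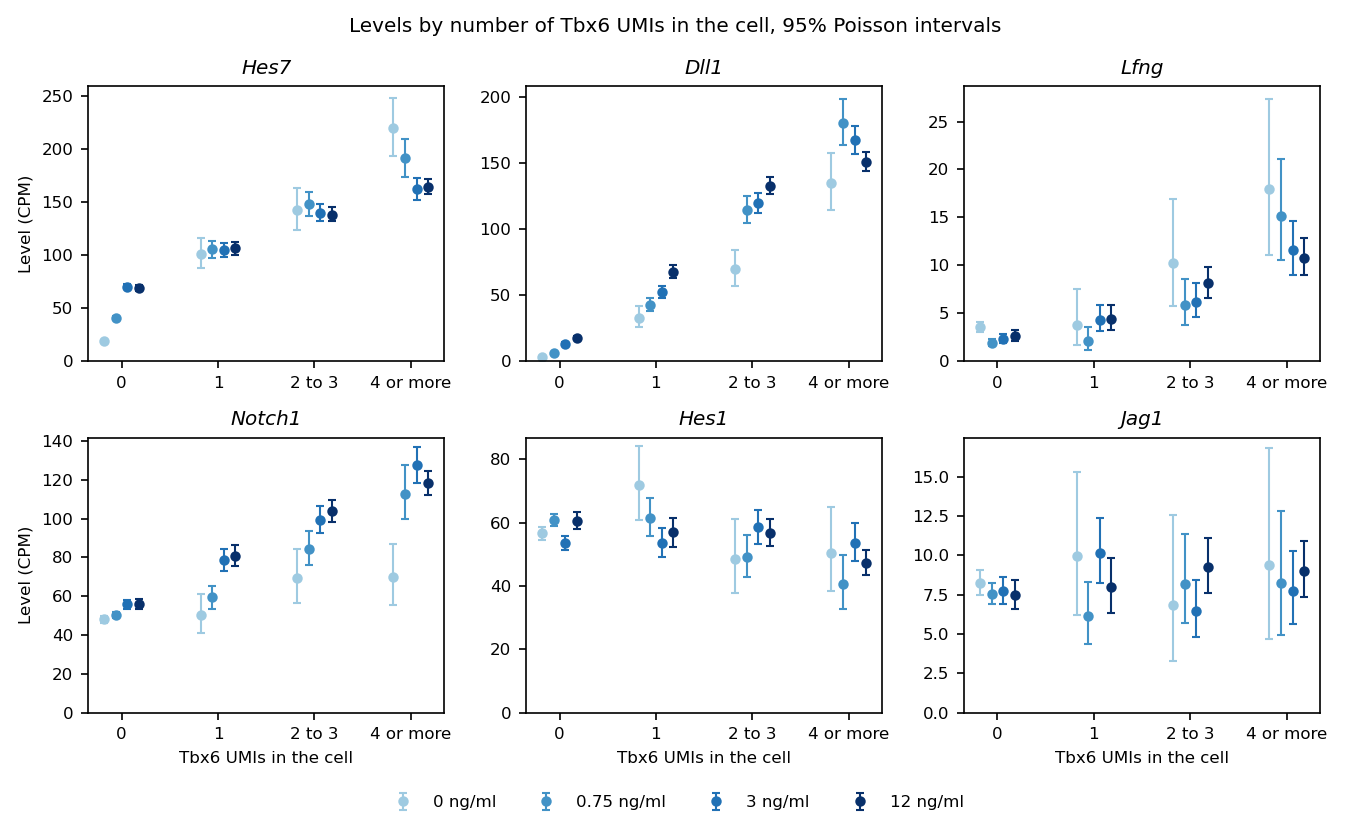
Levels (CPM) of Hes7, Dll1, Lfng, Notch1, Hes1 and Jag1 by the number of Tbx6 UMIs in the cell (x axes), with 1 color per FGF2 dose and 95% Poisson intervals for counting error. Hes7 goes from 68.6 to 165 CPM and Dll1 from 17.6 to 151 CPM across the classes at 12 ng/ml, while Jag1 has overlapping intervals.

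A further split by T (brachyury), made after these values had been seen, showed where the remaining Hes7 RNA was. In cells with T but no Tbx6 UMI, Hes7 was at 67.8, 71.7, 86.4 and 83.2 CPM from no FGF2 to the high dose, and in cells with neither at 6.79, 18.3, 37.4 and 25.6 CPM. Dll1 was at 8.75, 8.84, 18.0 and 21.9 CPM in cells with T alone. Cells with Tbx6 but no T UMI were few, 21, 65, 74 and 122 along the doses. Hes7 was at 44.8, 94.7, 124 and 131 CPM in them, and at 161, 140, 132 and 138 CPM in cells with both. Its intervals in these sets were thus separate without FGF2 and at the low dose and overlapped at the medium and high doses. Dll1 was at 25.2, 61.5, 71.1 and 137 CPM with Tbx6 alone and at 77.3, 94.4, 108 and 117 CPM with both, lower with Tbx6 alone at the first 3 doses and higher at the high dose. Nrarp was at 71.4, 63.1, 77.9 and 105 CPM with Tbx6 alone and at 81.0, 54.7, 65.0 and 78.1 CPM with both, and its intervals were separate only at the high dose. Cells with Tbx6 alone had a lower median depth than cells with both at each dose. At the high dose the medians were 23849.5 and 27858.5 UMIs. A cell without a T UMI is not shown to lack the RNA, and the part of depth in these levels was not tested.

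Some members also varied more between cells with a Tbx6 UMI than most genes did. With each cell thinned to 10000 UMIs, the variance over the mean of Hes7 was between 1.87 and 2.39 at the 4 doses, beside a median between 1.05 and 1.06 and a 90th percentile between 1.23 and 1.34 over all genes tested. At the high dose it was 1.97 for Hes7, 2.001 for Dll1, 1.63 for Hes1, 1.61 for Nrarp, 1.45 for Notch1, 1.34 for Dll3, 1.16 for Lfng, 1.14 for Jag1, 1.05 for Notch2 and 0.979 for Hey1. Lfng, Jag1, Notch2 and Hey1 lay under the 90th percentile of all genes there (1.23), and Notch2 and Hey1 also under the median (1.0525). The genes were not matched by level, and mean counts per cell at the high dose were 1.48 UMIs for Hes7 and 0.0936 for Hey1. The part of level in these values was not tested. In that library 37.0% of these cells had no Hes7 UMI after thinning and the highest count was 12. At 5000 UMIs per cell, Dll1 and Dll3 were found in the same cell 1.93, 1.53, 1.31 and 1.22 times as often as the product of their single shares from no FGF2 to the high dose, and Hes7 and Hes1 0.820, 0.850, 0.731 and 0.856 times. These counts are sparse, for instance 93 cells with both Hes7 and Hes1 at the high dose, and serve as a description. Without FGF2 only 135 cells held a Tbx6 UMI, so the ratios there rest on fewer cells. At the high dose, 2 alternatives gave 1.07 and 1.15 for Dll1 and Dll3 in place of 1.22. For Hes7 and Hes1 they gave 0.803 and 0.955 in place of 0.856.

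Cdh1, which encodes E-cadherin, is a marker of epithelial cells, and a split by Cdh1, likewise made after values had been seen, gave Notch1 another pattern than Hes7. With FGFRi, Notch1 was at 57.8 CPM in the 967 cells with a Cdh1 UMI and at 14.2 CPM in the 734 without, a 4.07-fold difference (3.57 to 4.66). Without FGF2 it was at 55.4 and 35.3 CPM, at the low dose at 58.9 and 49.0 CPM, at the medium dose at 61.0 and 79.8 CPM and at the high dose at 60.9 and 89.9 CPM. The level in cells with Cdh1 thus stayed between 55.4 and 61.0 CPM, and that in cells without was 14.2 CPM with FGFRi and 89.9 CPM at the high dose. Hes7 was lower in cells with Cdh1 at every FGF2 dose, at 8.92 and 74.9 CPM without FGF2 and at 63.2 and 128 CPM at the high dose. With FGFRi, Notch1 was the 1 member of 4 past the rule and higher in cells with Cdh1 (2.79% of all genes, with 1.67% lower). In the 4 other libraries Hes7, Dll1, Dll3 and Nrarp were past it and lower in cells with Cdh1, joined by Hey1 at the medium dose, 4 of 7, 4 of 7, 5 of 8 and 4 of 7 members. Of all genes 2.32%, 1.71%, 1.23% and 1.57% were lower and 7.91%, 6.08%, 3.96% and 5.19% were higher in these libraries, in the order of the doses. A member could enter these counts through the cells in which it was higher, as Hes7 did without FGF2. Cells with a Cdh1 UMI had the higher median depth in each library. The medians were 26536 and 22696 UMIs with FGFRi, and 29874 and 26285.5 UMIs at the high dose. A cell without a Cdh1 UMI is not shown to lack the RNA, and the part of depth was not tested.

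**Figure D5:**
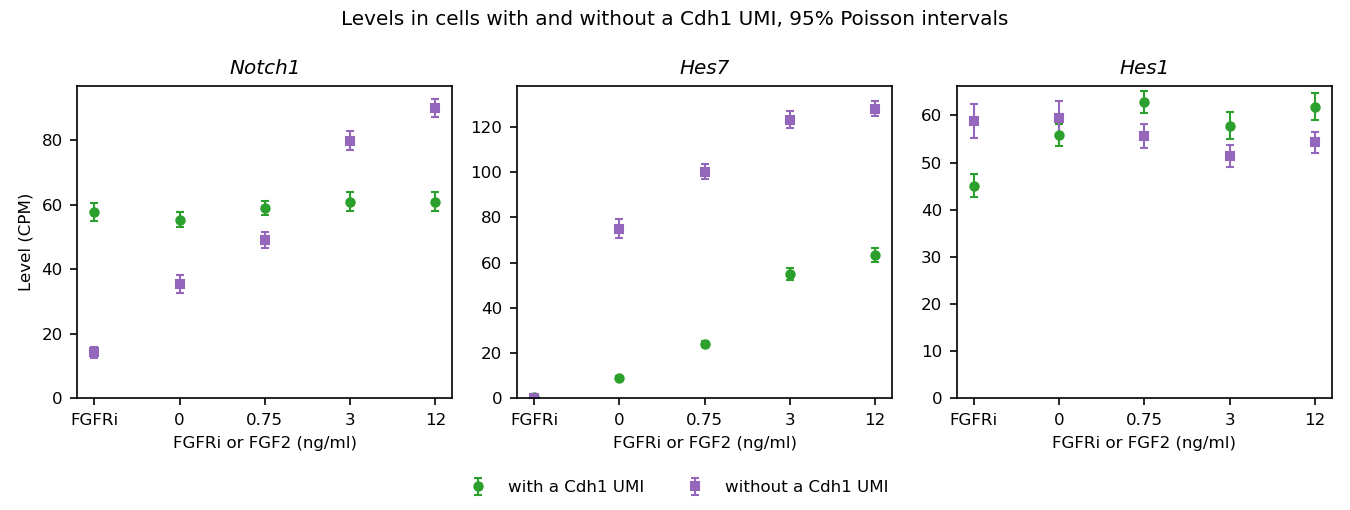
Levels (CPM) of Notch1, Hes7 and Hes1 in cells with (green circles) and without (purple squares) a Cdh1 UMI with FGFRi and at 4 FGF2 doses, 1 library each, with 95% Poisson intervals for counting error. Notch1 stays between 55.4 and 61.0 CPM in the cells with Cdh1, while in the others it is at 14.2 CPM with FGFRi and at 89.9 CPM at 12 ng/ml.

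Markers of other cell types moved with these results, and their part in them was not tested. Of the 8 surface and extraembryonic ectoderm markers, 7 reached 5 CPM with FGFRi, and their summed level was 2774 CPM with FGFRi and 920 CPM at the high dose, where it was 218 CPM in cells with a Tbx6 UMI and 1601 CPM in those without. The summed level of 9 mesenchyme and extraembryonic mesoderm markers was 5270 CPM with FGFRi, and between 319 and 1415 CPM at the FGF2 doses. The presomitic list, which includes Hes7, Dll3 and Lfng, summed to 37.1 CPM with FGFRi and 684 CPM at the high dose. Most of both sums was Rspo3, at 24.9 and 432 CPM. The primitive streak list went from 6.82 CPM with FGFRi to 462 CPM at the high dose, and the caudal epiblast list from 64.7 to 517 CPM. The hemato-endothelial list went from 198 to 39.9 CPM and the neurectoderm list from 132 to 29.9 CPM. With FGFRi, only 1 of the 9 hemato-endothelial and 2 of the 7 neurectoderm markers reached 5 CPM. Few genes thus made up most of each sum there. From no FGF2 to the high dose, the hemato-endothelial sum was 67.8, 24.3, 26.9 and 39.9 CPM. The somite markers of the presomitic list stayed low, with Tcf15 at most at 1.54 CPM and Meox1 at most at 0.335 CPM in any library. Msgn1 and Tbx18 had 0 UMIs with FGFRi, which allows up to 0.0627 CPM (3 UMIs). At the high dose Msgn1 was at 2.66 CPM.

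The other genes of the pathway and clock were counted by the same rule of size. As the 4 leading members were picked by this rule, their ratios are not compared with those of the lists. Of 78 further genes in 6 lists, among them Tbx6, which also splits the cells, 46 reached 10 CPM without FGF2 or at the high dose. Of these, 11, with Tbx6, were past the rule and higher at the high dose and 2 were lower (1.87% and 4.04% of all genes). Their ratios of the high dose to no FGF2 went from 0.447 for Bcl9l to 10.1 for Mesp1. Hes5, Spry4, Snai1, Tbx6, Mesp1, Cyp26a1 and Foxc1 reached 10 CPM only at the high dose. They thus entered this count through the library in which they were higher. Between FGFRi and no FGF2, 6 of 43 were higher and 4 lower without FGF2 (2.62% and 5.38% of all genes). From no FGF2 to the low dose 3 of 42 were higher and 1 lower (0.308% and 1.41%). From the low to the medium dose 2 of 45, Tbx6 and Snai1, were higher and 0 lower (0.336% and 0.523%). From the medium to the high dose 0 of 45 were higher and 1, Pax3, was lower (0.0631% and 0.0252%). Of the 10 tested genes for processing and glycosylation of Notch, 0 were past the rule between no FGF2 and the high dose. In a list this short, a count of 0 is near the shares of all genes. Between FGFRi and no FGF2, 2 of 12, Aph1b and Furin, were lower without FGF2 (5.38% of all genes). Psenen, a subunit of γ-secretase, was at 97.8 CPM without FGF2 and 94.3 CPM at the high dose, Mib1, which endocytoses ligands, at 51.4 and 56.9 CPM, and the metalloprotease gene Adam10 at 32.4 and 32.3 CPM. Furin, which cleaves the receptor precursor, was at 62.6 CPM with FGFRi and 30.3 and 17.2 CPM without FGF2 and at the high dose. Of 12 tested genes of the nuclear complex and its modulators, 0 were past the rule between no FGF2 and the high dose, again near those shares. Between FGFRi and no FGF2, 1 of 12, Nle1, was higher without FGF2, at 20.2 against 9.87 CPM (2.62% of all genes). Rbpj, the DNA-binding partner of Notch, was at 81.5 CPM with FGFRi, 73.0 CPM without FGF2 and 51.6 CPM at the high dose. Maml3, a coactivator, was at 51.1, 67.9 and 75.3 CPM in the same libraries.

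Among other ligands and receptors only Notch3 reached the minimum without FGF2 or at the high dose, at 19.8 and 24.8 CPM. Dlk1, a non-canonical ligand, was at 29.7 CPM with FGFRi, 9.80 CPM without FGF2 and 2.40 CPM at the high dose, and Jag2 was at 5.25, 4.44 and 1.70 CPM. Of the other Hes and Hey genes, Hes5 was past the rule, at 0.293 CPM with FGFRi, 2.94 CPM without FGF2 and 11.9 CPM at the high dose (4.05-fold), and Hes6 was at 25.6 and 25.7 CPM without FGF2 and at the high dose. Hes5 thus had the same order as Hes7, and Hes6 was level like Hes1.

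In the Wnt and FGF arms of the clock, 5 of 14 tested genes were higher at the high dose than without FGF2. They were Sp5, Lef1, Spry4, Dusp4 and Snai1, and 1, Bcl9l, was lower (1.87% of all genes higher and 4.04% lower). Axin2, the Wnt feedback gene that oscillates in the presomitic mesoderm, was at 68.0, 91.7, 90.1 and 69.6 CPM from no FGF2 to the high dose, so its highest levels were at the doses between. Snai1, a repressor of epithelial genes, was at 4.95 CPM without FGF2 and 22.9 CPM at the high dose. Of 7 tested presomitic and somite boundary genes, 5 were higher and Pax3 was lower at the high dose, beside the same shares of all genes. Tbx6 is among the 5. Rspo3, a secreted Wnt amplifier, was at 93.0 and 432 CPM, Mesp1 at 1.58 and 15.9 CPM, and Cyp26a1, which degrades retinoic acid, at 9.96 and 37.8 CPM.

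The genes whose profile over the 5 libraries was most like that of each member were found by the root mean square difference of centered log2(CPM + 1) among 8761 genes. Those nearest to Hes7 were Hoxaas3, a non-coding RNA of the HoxA cluster, at 0.27, the ligand gene Fgf17 at 0.27 and Hoxb8 at 0.34. Those nearest to Dll1 were Lefty1 (0.17), Chst7 (0.20) and Fgf15 (0.23). Notch1 was nearest to Aldoa, Fam162a and Agtrap, Hes1 to Ppp1r2, Ccdc59 and Gps2, Hey1 to Epha1, Cyb5r1 and Acp6, and Jag1 to Fbxl7, Hsdl2 and Selenom, all at differences between 0.01 and 0.05. With only 5 libraries, and with many genes of nearly level profile, these neighbors describe the likeness of levels and nothing else.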

How the data were processed

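Single-cell RNA sequencing (10x Genomics, 3' chemistry) of 5 libraries was re-analyzed, 1 per condition. The authors deposited UMI counts of genes by barcodes that are raw, that is, neither normalized nor filtered for cell quality. Per the labels, reads were processed with Cell Ranger on mm10. The methods and the matrix headers name different versions of it. Counts are taken per gene, so that a gene and an overlapping neighbor may share reads.

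Barcodes with at least 2500 detected genes and at most 10% mitochondrial UMIs were retained, which left 10653 of 15375 barcodes and between 47824660 and 81538748 UMIs per library. Doublets were not called, and an alternative left out the 5% of cells with the most UMIs. Levels (CPM), shares of cells and ratios were computed from summed UMIs, with exact Poisson, Clopper-Pearson and conditional 95% intervals and no pseudocount. No test was run, since conditions had no replicates. Cells were split by at least 1 UMI of Tbx6 where 20 or more cells held one. For shares, cells were thinned to 5000 UMIs, and for variance over the mean to 10000 UMIs, which 94 of the retained cells did not reach. The lists of pathway genes and markers, the rule of size, the alternatives and the rule for named genes (all members and Tbx6, the 3 nearest genes of 6 members, and up to 4 genes per list by level and up to 4 by the rule of size) were chosen, like the members, with earlier results of these data known. Jag2, Dlk1 and Hes5 follow from that rule. Pax3 and Bcl9l are named as genes past the rule of size and lower at the high dose, in lists with more than 4 past it. Some genes that the rule allows by level are not described above. They include Epha4, Snw1 and Phlda1, which was at 108 CPM without FGF2 and 67.4 CPM at the high dose. The splits by T and Cdh1 were added after values had been seen.

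Positions came from GENCODE vM21 and promoters from RefSeq on GRCm38.p6, and identifiers of all members matched. Intervals, the rule of size and the thinning were checked on simulated data. Python 3.11.15, NumPy 2.4.6, SciPy 1.17.1, pandas 2.3.3 and Matplotlib 3.10.9 were used, with edgeR 4.0.16 (R 4.3.3) for TMM factors.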

Additional observations from a re-analysis of the deposited data

Results flagged for a closer look

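In 4 instances, a member was higher in one set of cells with FGFRi and lower in it at the high dose (12 ng/ml FGF2), or the reverse, with both intervals excluding a ratio of 1. Each rests on 1 library per condition, the difference between the conditions was not tested, and the intervals cover counting error only. The ratio of Notch1 in cells with over cells without a Cdh1 UMI was 4.07 with FGFRi and 0.678 at the high dose. That of Lfng was 1.31 with FGFRi and 0.510 at the high dose. For Hes1 it was 0.766 with FGFRi and 1.14 at the high dose. The ratio of Notch1 in cells with over cells without a T UMI was 0.367 with FGFRi and 1.47 at the high dose, and in the FGFRi library only 22 cells had a T UMI. The presomitic markers, which include Lfng, summed to 452.7 CPM in cells with and 835 CPM in cells without a Cdh1 UMI at the high dose, and to 22.2 and 61.2 CPM with FGFRi. Over all cells at the high dose, Rspo3 made up 432 CPM of their sum of 684 CPM. The part of these markers in the differences was not tested. Cells with a Cdh1 or a T UMI also had a higher median depth than the others in both libraries, and the part of depth was not tested.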

How the results depend on the processing

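Of 650 values recomputed under an alternative setting, 530 moved by less than their counting interval or, for counts of genes, by less than 1.5 times, 120 moved by more, and 0 called values changed direction. Some ratios near 1 that were not called did change direction. That of Hes1 between the high dose and no FGF2 did so in 4 of 7 alternatives. Without FGF2, that of Jag1 between cells with and without a Tbx6 UMI did so in 3 of 5. The log2 ratio of Hes7 between the high dose (12 ng/ml) and no FGF2 was 1.80, and between 1.74 and 1.89 over 7 alternatives, with the highest at a limit of 5% mitochondrial UMIs. Counts of members past the rule of size depended on its limits, and the shares of all genes past the other limits are not given here. The counts at those limits therefore stand without a background. With at least 50 CPM, there were 0 between FGFRi and no FGF2, 0 from there to the low dose (0.75 ng/ml) and 0 from low to medium (3 ng/ml). With a minimum of 3 UMIs only, 6 were past it between FGFRi and no FGF2, since Dll1, Dll3 and Lfng then count. At a ratio of 1.5, there were 3 from no FGF2 to low, 4 from low to medium and 1 from medium to high, and between cells with and without a Tbx6 UMI 6 at the medium and 5 at the high dose. At 5% mitochondrial UMIs, 3 were past it from no FGF2 to low. Of the further pathway genes, at a ratio of 1.5, 10 were past it from no FGF2 to low, 6 from low to medium, 4 from medium to high and 20 from no FGF2 to high. Reading Tbx6 after thinning gave log2 ratios of Dll1 of 1.66 at the medium and 1.63 at the high dose, in place of 2.97 and 2.75. With a pseudocount of 0.1, 1 of the 3 genes nearest to Hes7 and 0 of those nearest to Hey1 remained. TMM factors were between 0.993 and 1.01. No paired analysis was possible because each condition has 1 library, and for the same reason no replicate could be left out. Genes with few UMIs in a library, such as Hes7 and Dll3 with FGFRi, have ratios with wide intervals, and the spread between cultures is unknown.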
